A study of Mus musculus with 4 samples.

Results

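Chromosome 8 was the mouse autosome with the most called sites of topoisomerase IIα (TopoIIa) activity per Mb in embryonic stem cells, and its peaks are described here along the chromosome and against the other 18 autosomes. All peaks that the wild-type and the Brg1 knockout list place on chromosome 8 were taken, 1298 of 16591 wild-type peaks (7.82%) and 314 of 4622 knockout peaks (6.79%), or 1612 of 21213 in both lists. The members were chosen by chromosome name, and the chromosome was selected on its wild-type peak density in these lists, so density, ranks and shares are given as descriptions with no test. Positions are in the mouse build mm9.

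Both lists came from one line of embryonic stem cells, derived from mice with a floxed Brg1 allele and an actin-CreER transgene, whose Cre is active in the presence of tamoxifen. The cells of every group had been infected with a V5-tagged human TopoIIa, and the mouse enzyme was knocked down. The wild-type group received ethanol and the Brg1-/- group tamoxifen for 24 h, followed by 48 h in stem cell medium, and 100 µM etoposide was added for 10 min before lysis. The series has 4 samples of 1 library each, an anti-V5 pull-down and an input per genotype. The 2 pull-down lists were used, and the inputs and reads were not analysed here. Neither list measures Brg1, the amount of TopoIIa or a stem cell marker, so genotype and cell type rest on the labels. The feeder cells and the human form of the enzyme limit what the lists say about the mouse enzyme in pure stem cells.

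TopoIIa cuts one DNA duplex, passes another through the gap and reseals it, which removes tangles and relieves supercoils. Etoposide blocks the resealing step, so that the enzyme stays covalently bound to the ends it made, and a pull-down then marks where it was cutting. Brg1 is the ATPase of the BAF (mSWI/SNF) complex, which moves and evicts nucleosomes. The series asks where TopoIIa is active with and without Brg1.

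Wild-type sites on chromosome 8 were called at 9.86 peaks per Mb (exact 95% counting interval 9.33 to 10.4, length counted to the last called peak at 131.67 Mb). The other 18 autosomes together had 6.29 per Mb (6.19 to 6.39), and singly they ran from 4.08 on chromosome 13 to 9.25 on chromosome 11. The ratio of chromosome 8 to the others was 1.57. Knockout sites were called at 2.38 per Mb (2.13 to 2.66) against 1.66 (1.61 to 1.71) on the others. A large part of that knockout excess came from 2 places: 75 of the 314 knockout peaks (23.9%) stood in groups of at least 10 with gaps of at most 10 kb, against 2.57% on the other autosomes. Without such groups the knockout density was 1.82 per Mb (1.59 to 2.06) against 1.62 (1.57 to 1.67), and chromosome 8 went from rank 1 to rank 4 of the 19 autosomes. These intervals cover counting error and treat peaks as independent. With 1 library per genotype they say nothing of how much a repeat of the experiment would vary.

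The high wild-type density was not spread evenly. In windows of 1 Mb, counted by peak centre, the wild-type numbers ran from 0 to 70 over 129 windows with a median of 5 and quartiles of 3 and 10. On the other autosomes the median was 4, with quartiles of 3 and 7. Windows with at least 20 wild-type peaks made up 16 of the 129 (12.4%, exact 95% interval 7.26 to 19.4%), where the background over all autosomal windows was 5.98%. Those 16 windows held 677 peaks, 52.2% of the chromosome's wild-type list (49.4 to 54.9%). On the other 18 autosomes such windows held 26.1% (25.4 to 26.8%).

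Outside these dense windows the wild-type numbers were lower by construction. The 113 windows with under 20 peaks averaged 5.50 wild-type peaks (5.07 to 5.95) and the 2166 such windows of the other autosomes 5.02 (4.93 to 5.12). Because the limit of 20 acts on the numbers compared, the densest 10% of windows of each chromosome were also set aside instead. Chromosome 8 then averaged 5.93 wild-type peaks per window, rank 3, against a median of 4.66 over the other autosomes, with 6.67 on chromosome 11 as the highest. Dense windows held a mean of 42.3 peaks each on chromosome 8 (39.2 to 45.6) and 29.7 (28.8 to 30.7) on the others pooled. These intervals cover counting error and not the spread between windows. On chromosome 8 the dense windows ran from 21 to 70 peaks. Chromosome 10 had fuller ones, 73.3 each over 3 windows, and chromosome 11 a higher share of dense windows, 13.4%. The densest 10% of windows held 47.0% of the wild-type peaks on chromosome 8 and 47.1% on chromosome 17. Of the 10 autosomal windows with most wild-type peaks, 5 were on chromosome 8. The 2 fullest windows of all were on chromosome 10, with 98 and 96 peaks.

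**Figure D1:**
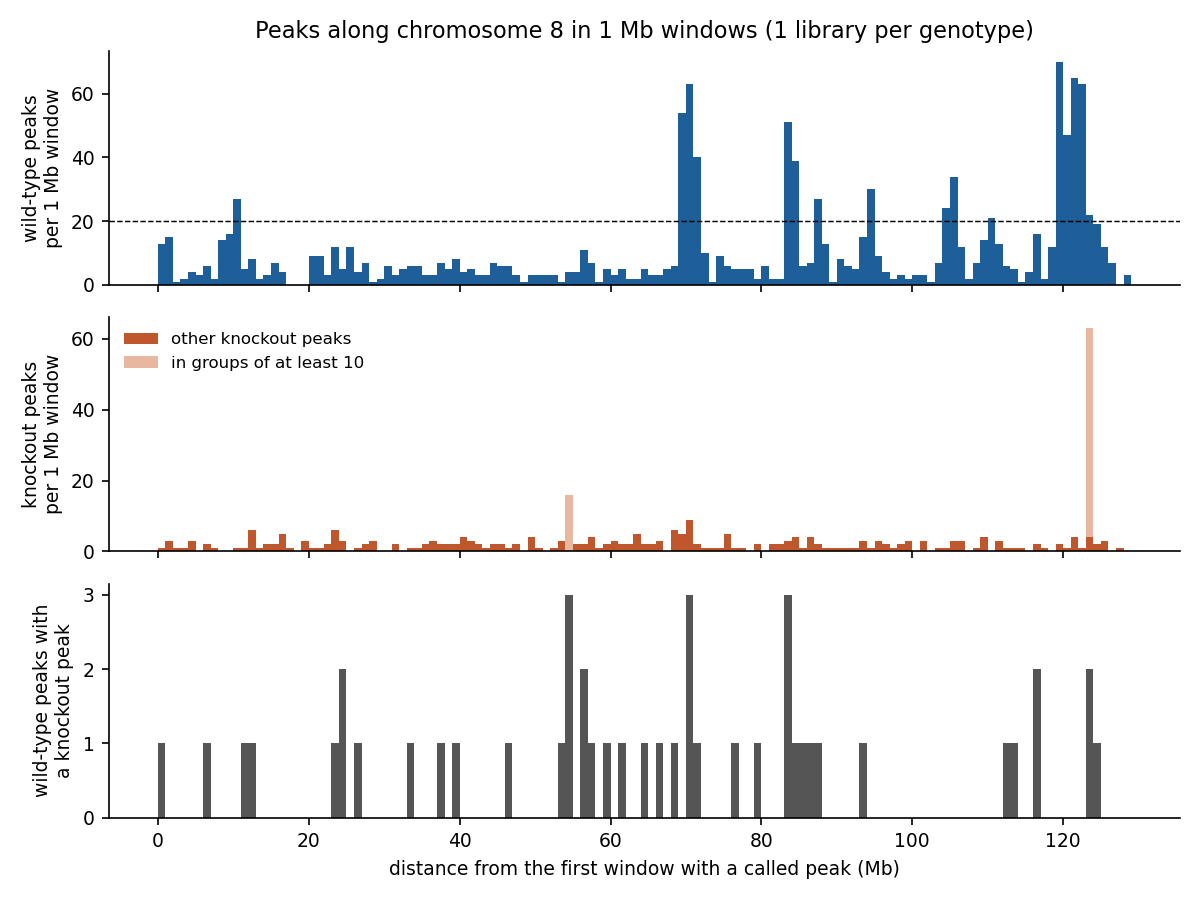
Numbers per 1 Mb window along chromosome 8, from the first window with a called peak, for wild-type peaks (top, dashed line at 20), knockout peaks (middle, pale where they belong to groups of at least 10) and wild-type peaks that overlap a knockout peak (bottom). The tallest wild-type windows reach 70, and the window with 63 knockout peaks holds 59 in one group.

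The dense windows formed 8 stretches. The longest ran from 122 to 127 Mb, with 70, 47, 65, 63 and 22 wild-type peaks in its 5 windows. It held 267 peaks, 20.6% of the chromosome's wild-type list. The next ran from 72 to 75 Mb with 54, 63 and 40 peaks, 157 in all. Together these 2 stretches covered 6.20% of the windows and held 32.7% of the peaks. Without them chromosome 8 averaged 7.22 wild-type peaks per window.

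The other dense stretches were shorter. A pair of windows from 86 to 88 Mb held 51 and 39 peaks, and a pair from 107 to 109 Mb held 24 and 34. Single dense windows started at 13, 90, 97 and 113 Mb, with 27, 27, 30 and 21 peaks. The first 72 Mb of the chromosome thus had 1 dense window and the rest 15. In 10 Mb blocks the lowest wild-type densities were 3.6 per Mb, from 50 to 60 and from 60 to 70 Mb, next to the block from 70 to 80 Mb with 19.9 per Mb. The block from 120 to 130 Mb had 31.9 per Mb.

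The knockout list followed this relief weakly. Its windows held a median of 2 peaks (quartiles 1 and 3), and 21 of the 129 (16.3%, 10.4 to 23.8%) held none, where the background over autosomal windows was 25.5%. Leaving out the groups of at least 10 knockout peaks, dense wild-type windows of chromosome 8 had 2.69 knockout peaks each (1.94 to 3.62), and its other windows had 1.73 (1.50 to 1.995). The other autosomes pooled had 1.19 (1.01 to 1.398) in dense windows and 1.68 (1.62 to 1.73) elsewhere. Singly, 14 of the 17 other autosomes with a dense window had that order. Chromosomes 6, 15 and 19 had the order of chromosome 8, with 2.25, 1.5 and 1.67 knockout peaks per dense window and 1.95, 1.45 and 1.23 per other window. The stretch from 72 to 75 Mb supplied 16 of those 43 knockout peaks, and without it the dense windows had 2.08 each (1.37 to 3.02). That interval reaches down into the one of the other autosomes and includes the value of the remaining chromosome 8 windows.

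Over the 129 windows, wild-type and knockout numbers had Pearson r = 0.29 and Spearman rho = 0.18 without those groups, and r = 0.14 and rho = 0.17 with them. On the 2295 windows of the other autosomes r was -0.07 without the groups and -0.03 with them, and rho was -0.02 in both cases. The windows share 2 libraries and the same underlying sequence, and a correlation this low in sparse numbers carries little.

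**Figure D2:**
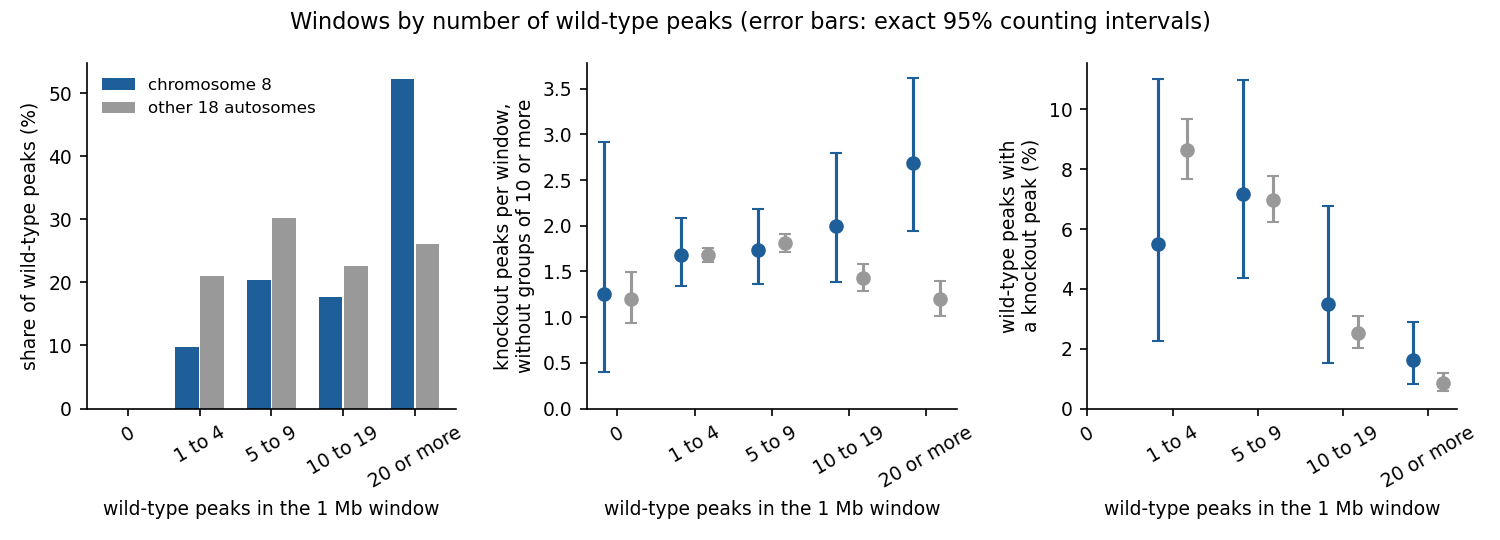
Windows of 1 Mb in classes of wild-type peak number, for chromosome 8 and the other 18 autosomes: share of all wild-type peaks (left), knockout peaks per window without groups of at least 10 (middle) and share of wild-type peaks that overlap a knockout peak (right), error bars exact 95% counting intervals. In the class of 20 or more, chromosome 8 holds 52.2% of its wild-type peaks and 2.69 knockout peaks per window, against 26.1% and 1.19.

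Stretches with no called peak were few in the wild-type list. Of the 129 windows 4 held no wild-type peak (3.10%, 0.851 to 7.75%), against a background of 2.72%. Of these 4, 3 were neighbours, from 20 to 23 Mb. They lay in the longest stretch between wild-type peaks, 3.74 Mb from 19354289 to 23098988, and the fourth was the window from 130 to 131 Mb. The next longest stretches were 1.70 Mb from 56209535, 1.61 Mb from 129589978, 1.36 Mb from 51068949 and 1.15 Mb from 31052574. Chromosome 8 thus combined the highest mean density of the autosomes with the second-longest wild-type gap among them, after one of 7.80 Mb on chromosome 7. That rank holds for the single longest gap. All its wild-type gaps over 1 Mb numbered 7 and made up 8.85% of its length, rank 11 of the 19 autosomes.

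The longest wild-type gap was not empty in the knockout list. It held 9 knockout peaks, 2.40 per Mb, among them the widest knockout peak of the chromosome, 6881 bp from 19923938 to 19930818 (score 401.63), which was also the second-highest in score. Another, from 19757802 to 19760625 (2824 bp, score 78.79), was the third-widest. Between 20026221 and 22629808 neither list had a peak, a stretch of 2.60 Mb. Whether reads can be placed in that stretch was not tested, as neither input reads nor the mm9 genome sequence entered the work. The second wild-type gap, from 56209535 to 57910588, held no knockout peak.

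Conversely, the longest knockout gap was rich in wild-type sites. From 10280682 to 13720272, 3.44 Mb, no knockout peak was called, while 52 wild-type peaks were (15.1 per Mb). They include the site from 12129657 to 12135591 (5935 bp, score 3100), whose nearest knockout peak was 1585 kb away. In the next knockout gap, 3.08 Mb from 31270587, there were 9 wild-type peaks (2.92 per Mb), and in those of 2.35 Mb from 53014319 and 2.23 Mb from 80436215 there were 7 and 8. The third in length was the stretch without peaks of either list.

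Wild-type peaks on chromosome 8 stood close together. Gaps and groups depend in part on wild-type density, the value the chromosome was chosen on. How far they go beyond that density was not tested. The median gap between neighbours was 22.3 kb (exact 95% interval 19.3 to 26.2), against 67.1 kb (64.7 to 69.5) on the other autosomes, of which the lowest was 32.3 kb on chromosome 11. With gaps of at most 10 kb, 312 peaks (24.0%, 21.7 to 26.5%) stood in groups of at least 5, where the background of the whole list was 7.38%. The other autosomes together had 6.20% (5.81 to 6.60%), and the nearest of them was chromosome 10 with 17.7%. Chromosome 8 held 7 groups of at least 10 peaks, 1 more than the other 18 autosomes together. The biggest group of all was on another autosome, with 32 peaks against 23 in the biggest of chromosome 8.

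The chromosome 8 groups of at least 5 numbered 39 and covered 1.90 Mb. They were 17.0 to 143 kb long (median 39.6 kb), and called peaks covered 37.5 to 91.4% of their length. Of the 39 groups 35 were centred in the dense windows. The biggest, from 72895176 to 73035397, held 23 peaks with a median score of 125.08 and 1 knockout peak inside. The groups from 124978180 to 125120857 (22 peaks, top score 1124.87), from 124748126 to 124872503 (16 peaks, top score 954.93) and from 122930668 to 123036526 (15 peaks, top score 399.73) held no knockout peak. The fifth, from 73265240 to 73322759, had 12 peaks on 57.5 kb, and they covered 80.1% of it, the tightest packing of these 5.

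Grouped wild-type sites were seldom found without Brg1. In the 39 groups 3 of 312 wild-type sites (0.962%, 0.199 to 2.78%) met a knockout peak, and 35 groups contained no knockout peak at all. Ungrouped wild-type peaks of the chromosome were shared in 42 of 986 cases (4.26%, 3.09 to 5.71%). The other autosomes had the same order, 0.548% (0.178 to 1.27%) in groups and 4.999% (4.64 to 5.38%) outside. By length, the 5 knockout peaks inside the 39 groups came to 2.63 per Mb (0.855 to 6.15). None of the 5 was in a group of at least 10 knockout peaks. The whole chromosome had 1.82 knockout peaks per Mb without such knockout groups and 2.38 with them, both inside that wide interval.

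Broad peaks were a further trait of the chromosome. Here 82 of 1298 wild-type peaks (6.32%, 5.06 to 7.78%) were wider than 5 kb, against a background of 2.07% in the whole list and 1.75% (1.55 to 1.98%) on the other autosomes. The highest of these was 3.59% on chromosome 15. Chromosome 8 carried 24.1% of all autosomal broad peaks. They made up 17.96% of the wild-type length called on it, against 5.49% on the others. The median width of all its wild-type peaks was 2383 bp (2328 to 2427) against 2147 bp (2135 to 2159).

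Most broad peaks lay where peaks were dense. Of the 82, 70 (85.4%, 75.8 to 92.2%) were in windows with at least 20 wild-type peaks. The other autosomes had 60.1% (53.8 to 66.1%). Of all wild-type peaks, such windows held 52.2% on chromosome 8 and 26.1% on the others. Groups of at least 5 held 41 of the 82 broad peaks (50%), and 24.0% of all chromosome 8 wild-type peaks. Outside such groups 4.16% of chromosome 8 peaks (3.0003 to 5.60%) were still broad, against 1.30% (1.12 to 1.51%) elsewhere. Wild-type peaks in its dense windows had a median width of 2587 bp (2514 to 2678), and in its other windows 2220 bp (2172 to 2262). The latter was still above the 2098 bp (2084 to 2113) of sparse windows on the other autosomes.

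**Figure D3:**
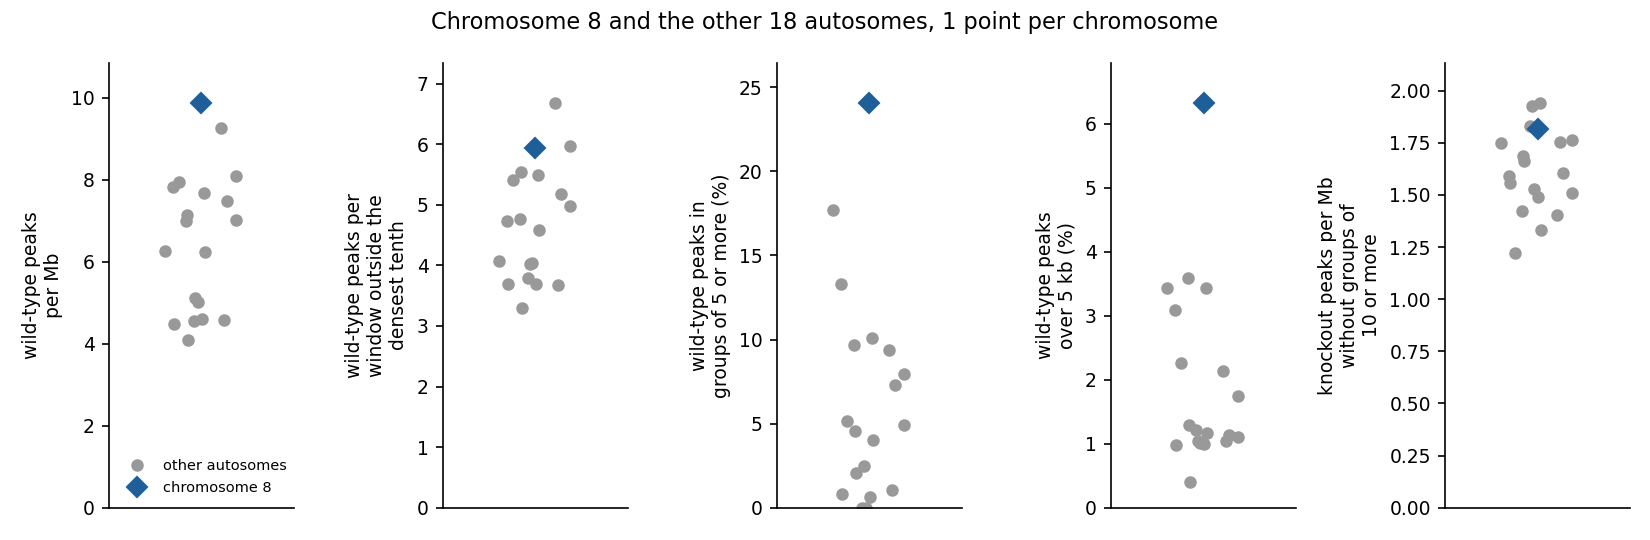
The 19 autosomes as points, chromosome 8 as a diamond, in wild-type peaks per Mb, wild-type peaks per 1 Mb window outside the densest 10% of windows, shares of wild-type peaks in groups of at least 5 and over 5 kb, and knockout peaks per Mb without groups of at least 10. Chromosome 8 stands at the top for density (9.86), grouping (24.0%) and broad peaks (6.32%), and among the others for the second and the last panel (5.93 and 1.82).

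The widest wild-type peak of the chromosome, from 126059865 to 126149272, was unlike the other broad peaks in width and in knockout peaks on it. Its score was 80.28 where the median of the broad peaks was 372.86. Another broad peak, from 71941654 to 71947341, scored 80.91. The widest peak measured 89408 bp and held 59 knockout peaks. These reached from 126062404 to 126146830, had a median width of 144 bp and a median score of 65.32, and covered 12.0% of that length. The next widest peaks, from 124804035 to 124818621 (14587 bp, score 105.47) and from 124782441 to 124796205 (13765 bp, score 377.27), belonged to the group of 16 at 124.7 Mb and had no knockout peak within 100 kb. A peak from 56196254 to 56209534 (13281 bp, score 2203.3) was the one wild-type peak in its 1 Mb window, and 3 knockout peaks lay on it.

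A second dense knockout group, from 57974970 to 57998631, held 16 peaks with a median score of 66.43. All 16 lay on 3 broad wild-type peaks that follow each other closely. These ran from 57974410 to 57986246 (11837 bp, score 809.98), from 57986446 to 57993091 (6646 bp, score 737.82) and from 57993141 to 57999796 (6656 bp, score 890.08), with 8, 4 and 4 knockout peaks. Their window held 4 wild-type peaks in all. Positions that collect reads in any library could not be told from TopoIIa sites here, since the inputs were not used.

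A peak was counted as shared when at least 1 bp of it was also covered by the other list. In all, 45 of the 1298 chromosome 8 sites called in wild-type cells (3.47%, 2.54 to 4.61%) were shared, against a background of 4.93% in the whole list. The other autosomes had 4.72% (4.39 to 5.08%), and the 2 intervals overlap. Per Mb, chromosome 8 had 0.342 shared wild-type peaks (0.249 to 0.457) and the others 0.297 (0.276 to 0.320). In the other direction 120 of 314 knockout peaks (38.2%, 32.8 to 43.8%) were shared, against a background of 21.2% and 19.8% (18.6 to 21.1%) on the other autosomes. That was the highest of the 19, but 75 of the 120 were in the 2 dense groups on 4 wild-type peaks. Without such groups the share was 18.8% (14.1 to 24.4%) against 19.99% (18.7 to 21.3%), rank 15 of the 19.

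The shared share differed in value along the chromosome. With the called span in 3 equal parts, 11 of 260 wild-type peaks (4.23%, 2.13 to 7.44%) were shared in the first part and 23 of 410 (5.61%, 3.59 to 8.30%) in the middle. In the last part 11 of 628 were shared (1.75%, 0.878 to 3.11%). The intervals of the last 2 parts did not overlap, while the interval of the first part overlapped both. These intervals treat peaks as independent, although 3 of the 23 shared peaks of the middle part adjoin under a dense knockout group. The comparison of the parts was not tested. Per Mb the parts had 0.257, 0.537 and 0.257 shared peaks, so the first and the last part had equal numbers of shared sites with unequal numbers of wild-type sites. The highest share was in the sparse block from 50 to 60 Mb, with 6 of 36 (16.7%, 6.37 to 32.8%). Of those 6, 3 were the adjoining broad peaks under the dense knockout group from 57974970. The sparse block from 60 to 70 Mb followed, with 5 of 36 (13.9%, 4.67 to 29.5%). From 100 to 110 Mb none of 91 wild-type peaks was shared, which allows up to 3.97%.

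The longest run of neighbouring wild-type peaks without a knockout peak counted 277, from 119130605 to 126056101, 6.93 Mb. It ended just before the 89408 bp peak and took in 4 of the 5 dense windows from 122 to 127 Mb and the start of the last. Knockout peaks were present there, with 2, 1, 4 and 1 in the 4 windows from 122 to 126 Mb, but none touched a wild-type peak.

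By number of wild-type peaks in the window, the share was 5.51% (2.24 to 11.03%) with 1 to 4, 7.17% (4.37 to 10.97%) with 5 to 9, 3.49% (1.52 to 6.77%) with 10 to 19 and 1.62% (0.814 to 2.89%) with 20 or more. On the other autosomes these classes gave 8.64%, 6.98%, 2.52% and 0.860%. Shared wild-type peaks per window, which do not divide by the wild-type number, went the other way on chromosome 8, from 0.14 with 1 to 4 peaks to 0.688 (0.343 to 1.23) with 20 or more. Between these classes chromosome 8 had 0.452 with 5 to 9 and 0.471 with 10 to 19, both inside the interval of its densest class. On the other autosomes the classes gave 0.234, 0.438, 0.337 and 0.256 (0.176 to 0.359), highest with 5 to 9 peaks. The 2 intervals for the densest class overlap slightly.

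Shared wild-type peaks scored higher than unshared ones. Each score is the one the authors deposited, and scores can be compared inside 1 list. Its median was 243.25 (159.63 to 314.63) for the 45 shared and 109.9 (105.1 to 115.09) for the 1253 unshared peaks of chromosome 8. On the other autosomes the medians were 175.16 (162.59 to 187.31) and 102.58 (101.09 to 104.17). In the top of 10 equal score bins of the whole list 17 of 172 chromosome 8 peaks (9.88%, 5.86 to 15.4%) were shared, and in the lowest bin 1 of 111 (0.901%, 0.0228 to 4.92%). The other autosomes had 11.2% and 0.929%. All chromosome 8 wild-type peaks had a median score of 111.99 (106.36 to 118.27), rank 4 of the 19 autosomes. At a score of at least 100 wild-type density, the value that selected chromosome 8, was 5.60 per Mb, still the highest.

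**Figure D4:**
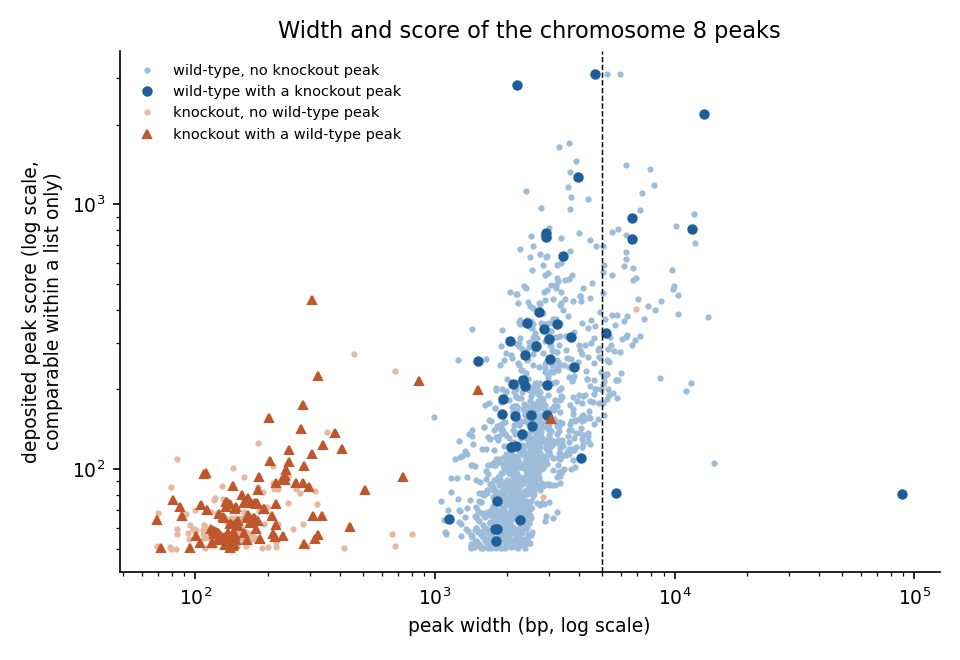
Width and deposited score of every chromosome 8 peak on log axes, wild-type in blue and knockout in orange, darker where the peak overlaps one of the other list, dashed line at 5 kb. The lists mostly separate by width, with medians of 2383 and 144 bp, and the 89408 bp wild-type peak lies alone at the right with a score of 80.28.

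Of the 10 highest-scoring wild-type sites 5 lay between 11 and 15 Mb, and the last of the 10 ended at 98.0 Mb, before the longest dense stretch. The score 3100 was shared by 3 of them, the site at 12129657, one from 13916391 to 13921608 (5218 bp), and one from 86646389 to 86651028 (4640 bp). The last of these stood in a group of 5 within a dense window and had a knockout peak. The sites from 14305895 to 14308097 (2203 bp, score 2833.55) and at 56196254 also had one. The other 7 did not, and their distances to the nearest knockout peak ran from 72.8 kb for the site from 86721082 to 86729002 (score 1363.7) to the 1585 kb given above. Of these 10 sites 4 lay in dense windows, which held 52.2% of all chromosome 8 wild-type peaks. Among the 100 highest-scoring peaks of the chromosome 10 were shared. The shared share was 3.47% over all its wild-type peaks and 9.88% over those in the top score bin.

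Knockout peaks of chromosome 8 were narrow, as in the rest of their list, with a median width of 144 bp (141 to 148) against 141 bp (140 to 141). The top-scoring one, from 86280579 to 86280885 (307 bp, score 434.27), lay on a wild-type peak in a dense window. Next after the 6881 bp peak in the wild-type gap came sites from 24205895 to 24206352 (score 272.12) and from 71998401 to 71999082 (score 234.39). Both lacked a wild-type peak, at distances of 42.5 and 51.1 kb. With each dense group taken as 1 item, 7 of the 10 top knockout sites were shared, 3 of them through the single wild-type peak at 56196254. Of all chromosome 8 knockout peaks 38.2% were shared, and 18.8% without dense groups. At knockout scores of at least 100 the share was 66.7% (44.7 to 84.4%), near that of the top 10.

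The 194 knockout peaks that met no wild-type peak were a median of 54.5 kb (43.3 to 72.3) from the nearest one, against 71.7 kb (68.0 to 75.7) on the other autosomes. Of these, 45 (23.2%, 17.5 to 29.8%) were within 10 kb, against 16.2% (14.9 to 17.5%). Wild-type peaks were also denser on chromosome 8, and the part of this in the distances was not tested.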

How the data were processed

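The authors deposited a peak list per V5 library, in which each row has a position and a score without a header. The submitters' processing notes name MACS 1.4.2, Bowtie 0.12.8 and mm9 without roles. Control, filters and other calling settings were not given in the sources used here. It is therefore unknown whether one calling was applied to both lists, and differences in number and width may come from calling. Depth is unknown.

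Members and lists were chosen with earlier results of these data known. Windows of 1 Mb were counted by peak centre, from the first to the last with a peak. Named regions were the top-scoring and widest peaks, the fullest windows, the longest gaps and the biggest groups of chromosome 8. Shares have exact (Clopper-Pearson) and densities exact Poisson 95% intervals. Medians have exact binomial order-statistic intervals. The overlap, distance, group and window functions recovered the planted values in 4 of 4 sets of simulated data. Positions are 1-based. The gene and promoter tables at hand are of another build (GRCm38.p6), so no gene is named and no sequence printed. Scripts ran in Python 3.11.15 (scipy 1.17.1, pandas 2.3.3, matplotlib 3.10.9, numpy 2.4.6). Alternatives were other windows, gaps, widths, score limits and overlap rules.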

Additional observations from a re-analysis of the deposited data

How the results depend on the processing

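Of 55 alternative values for chromosome 8, 28 stayed inside the counting interval of the reported value and 27 did not. At scores of at least 100 in both lists the densities were 5.60 wild-type and 0.182 knockout peaks per Mb and their ratio 30.7, against 4.13. Merging peaks at most 1 kb apart gave 8.98 and 2.07 per Mb and 10.998% broad peaks. Without groups of at least 10 knockout peaks the knockout density was 1.82 per Mb, the ratio 5.43, the shared share of knockout peaks 18.8% and the knockout number in the densest windows 2.69. The shared share of wild-type peaks became 5.02% at wild-type scores of at least 100 and 0.539% at knockout scores of at least 100. The shared share of knockout peaks became 16.9% and 66.7% at these limits. In 500 kb windows 10.47% held no wild-type and 41.5% no knockout peak, and 2.31 knockout peaks per Mb fell in the class of 5 to 9 wild-type peaks, its limits scaled to the window. In 2 Mb windows 1.54% held no knockout peak. Groups of at least 5 held 10.2%, 40.1% and 53.3% of wild-type peaks at gaps of at most 5, 20 and 50 kb. Peaks above 4 and 10 kb made up 11.2% and 0.924%. The median wild-type score was 106.06 without peaks over 5 kb, and the mean 184.0. With dense windows defined, after seeing the data, from 10 or 30 peaks, the others averaged 4.08 or 6.29 wild-type peaks. Wild-type density is the value the chromosome was chosen on. Grouping at a fixed gap depends in part on that density, so the ranks that follow are descriptions only. Chromosome 8 stayed first of the 19 autosomes in wild-type density, grouping and broad peaks under each alternative run for these. In knockout density it went from rank 1 to 3 at scores of at least 100 and to 4 without the groups, and in the shared share of knockout peaks from rank 1 to 7, 4 and 15 at the wild-type limit, at the knockout limit and without the groups. Beyond what each limit removes by construction, the cause was not tested. No replicate could be left out. No paired analysis was possible because there is 1 library per genotype.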
